A study of Mus musculus with 6 samples.

Results

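The p53 pathway was followed in brown fat through 10 genes, namely Trp53, which encodes p53, and 9 genes best known as its transcriptional targets, Cdkn1a, Mdm2, Aen, Ccng1, Bax, Bbc3, Zmat3, Sesn1 and Eda2r. They were chosen by name from textbook knowledge of the pathway, with earlier results of these data known. All 10 were found by gene symbol among the 55703 genes listed. Transcripts were measured by RNA-seq in interscapular brown adipose tissue (iBAT), a heat-producing fat depot, of 8-week-old C57BL/6 mice. Wtap-BKO mice (n = 3 libraries) carried Wtap alleles with loxP sites around an exon together with Ucp1-iCre, and Wtap flox/flox mice (n = 3 libraries) carried the same floxed alleles without the Cre. WTAP belongs to the methyltransferase complex that places N6-methyladenosine on mRNA, and the comparison asks how its loss in brown adipocytes alters the transcripts of the tissue. In Ucp1-iCre mice the Cre is read from the Ucp1 locus, so that deletion is directed to Ucp1-expressing adipocytes. It is not directed to blood vessel, immune and stromal cells of the pad, and Wtap was not measured here by cell type. No group with the Cre alone was analysed here.

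p53 is a transcription factor held at a low level by MDM2, which tags it for degradation. DNA damage kinases and other stress signals release p53 from this control, largely through the protein and not through its mRNA, and p53 then switches on genes that stop the cell cycle, start apoptosis, limit oxidative damage or repair DNA. Because Mdm2 is itself a target, the pathway carries its own brake. The mRNA level of the targets is a common readout of p53 activity, although most of them also answer to other transcription factors.

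p53 binds DNA as a tetramer on a pair of decamer half-sites, and the half-site consensus was looked for in RefSeq promoter windows (GRCm38.p6) that run from 250 bases before to 50 after each annotated start. The consensus reads the same on both strands, and no other motif was searched. Of the 10 genes, 9 had a window, and Zmat3 was not among them. A half-site stood in a window of 7 of these 9 genes, against 8.36% of all 32851 windows and 9.55% of all 27025 genes with a window. Bbc3, with 3 windows, and Eda2r, with 1, held none. The first bases after the Bbc3 starts were not found in a GENCODE transcript of the gene, unlike those of the other genes. The stretches are shown because they carry the p53-type sequence found near the start of each gene. They run 5′ to 3′ on the gene's strand, with the half-site in capitals.
Cdkn1a: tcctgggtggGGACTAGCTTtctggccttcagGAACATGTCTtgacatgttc
Mdm2: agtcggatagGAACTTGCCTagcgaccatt
Trp53: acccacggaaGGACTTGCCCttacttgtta
Ccng1: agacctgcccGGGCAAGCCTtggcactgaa
Bax: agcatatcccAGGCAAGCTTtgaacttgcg
Aen: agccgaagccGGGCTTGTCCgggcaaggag
Sesn1: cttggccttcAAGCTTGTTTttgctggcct

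Cdkn1a had 2 windows. The one of the start at 29090979 was the only window of these with 2 half-sites, 12 bases apart and beginning 73 and 51 bases before that start. They lay on the plus strand at chr17:29090906-29090915 and chr17:29090928-29090937. The other Cdkn1a window, of the start at 29093769, held 0. Windows with 2 or more half-sites made up 0.359% of all windows. The half-site of Trp53 began 75 bases before its start (plus strand, chr11:69580284-69580293). Those of Ccng1 (minus strand, chr11:40755462-40755471), Mdm2 (minus strand, chr10:117710935-117710944) and Bax (minus strand, chr7:45467090-45467099) began 185, 186 and 201 bases before the start. All of these sites lay outside the GENCODE gene. The Aen half-site (plus strand, chr7:78895937-78895946) lay in an annotated exon, 10 bases after 1 RefSeq start and 121 before the other. The Sesn1 half-site (plus strand, chr10:41887266-41887275) lay in an intron of the longest form, 173 bases before the start of the shorter one. A match describes letters only, since binding of p53 was not measured here.

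The 6 libraries held 15979694 to 19005123 reads assigned to genes, so that depth was similar. Levels are given in FPKM, fragments per kilobase of transcript and per unit of library size, a unit already divided by gene length. Changes are differences of log2(FPKM + 0.1), Wtap-BKO over flox/flox, which understates the change of low genes. Tests ran over 13507 genes whose mean reached 0.5 FPKM and 10 reads, and a change with an adjusted p under 0.05 is termed called. Wtap RNA was higher in the libraries labelled Wtap-BKO, at 11.8, 12.3 and 12.7 FPKM, against 8.00, 8.63 and 8.16 FPKM in flox/flox libraries (0.56 ± 0.09 SE, adjusted p = 0.0160). A value over the whole gene does not measure the deleted exon, so it checks the labels neither way, and the directions given here rest on the labels. Skeletal muscle markers summed to 1481 FPKM in Wtap-BKO 3 and 891.5 FPKM in flox/flox 2, against 11.8 to 27.8 FPKM in the other 4 libraries. Defining brown adipocyte markers were present in every library, and their 12 genes summed to 3181 to 4346 FPKM in Wtap-BKO and 5879 to 7910 FPKM in flox/flox libraries. Of the 12, 1 was called higher (Adrb3) and 1 lower (Ucp1), with 3 changes above 0 and 9 below. Each call made up 8.33%, beside 6.1% of all tested genes called higher and 3.88% called lower. Macrophage markers summed to 253 to 379 FPKM in Wtap-BKO and 165 to 245 FPKM in flox/flox libraries, with 4 of 11 called higher (36.4%). Fibroblast markers summed to 197 to 317 FPKM against 147 to 179 FPKM, with 1 of 8 called higher (12.5%), beside the same 6.1%. Neither sum overlapped between the groups (exact two-sided permutation p = 0.1 each, the smallest that 3 against 3 allows), and their part in the results was not tested. In bulk tissue, fewer cells of a type and less RNA per cell cannot be told apart.

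Of the 10 genes, 1 was called higher in libraries labelled Wtap-BKO (Aen) and 0 were called lower, beside 6.1% of all tested genes called higher and 3.88% called lower. The higher share thus stood close to the background, with 1 gene deciding it. Without adjustment, 3 of the 10 had a p under 0.05, Aen, Sesn1 and Zmat3, a share of 30% that stood at the background, since 28.9% of all tested genes had one. These were the 3 whose groups did not overlap, all with Wtap-BKO above. Over all tested genes the groups did not overlap with Wtap-BKO above in 18.2% and with Wtap-BKO below in 16.9%, the last of which held for 0 of the 10. Of all calls 61.1% were in the higher direction, and 78.2% with library size alone as the scale, where Aen was again the only one of the 10 called. The median change was 0.20, against −0.004 over all tested genes, with 8 of the 10 changes above 0. With voom on the recovered reads Aen was likewise the 1 gene of the 10 called, and 0 were called lower by either tool, with 0 lower at an unadjusted p under 0.05 from limma.

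**Figure D1:**
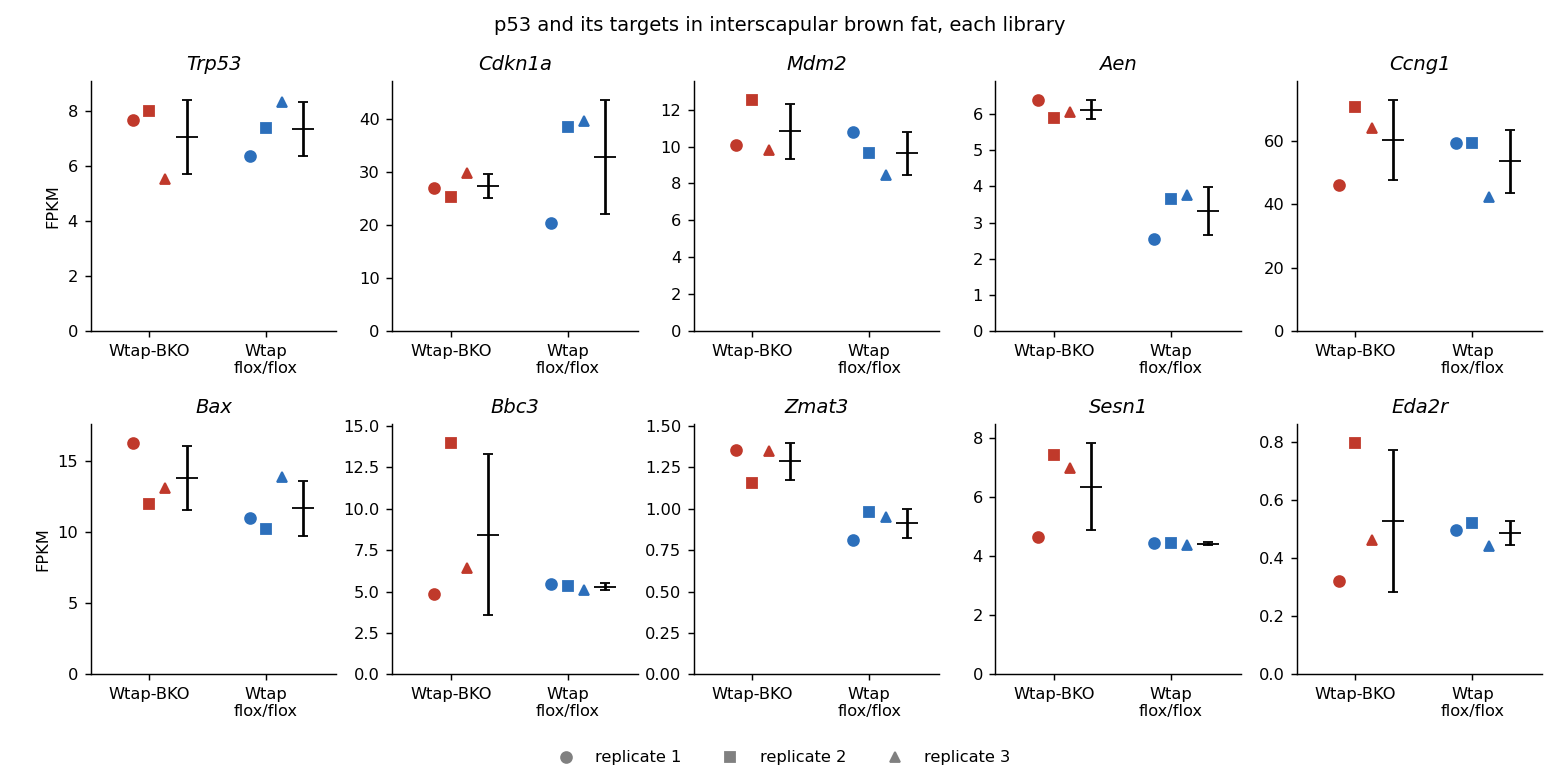
FPKM of each of the 10 genes (y axis, from 0, a scale of its own per panel) in the 3 Wtap-BKO libraries (red) and the 3 Wtap flox/flox libraries (blue), with marker shapes for the replicate number and black bars for the mean ± SD. The groups do not overlap for Aen, Zmat3 and Sesn1, and Bbc3 stands at 13.99 FPKM in Wtap-BKO 2 alone.

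Trp53 itself (ENSMUSG00000059552, plus strand of chromosome 11, 69580359 to 69591873) was expressed at 7.68, 8.02 and 5.53 FPKM in Wtap-BKO libraries, against 6.38, 7.38 and 8.33 FPKM in flox/flox libraries. The lowest and the second highest library were both Wtap-BKO, and the groups overlapped. The change was −0.07 ± 0.18 (SE, adjusted p = 0.837), with a 95% interval of −0.48 to 0.35, and its sign was positive with library size alone as the scale (0.02). Mdm2 (ENSMUSG00000020184, minus strand of chromosome 10, 117688875 to 117710758), the ligase gene that limits p53 and is induced by it, had 10.1, 12.5 and 9.82 FPKM in Wtap-BKO libraries, against 10.8, 9.65 and 8.47 FPKM in flox/flox libraries. The single high library was Wtap-BKO 2, and the other Wtap-BKO values lay inside the flox/flox range. The change was 0.16 ± 0.14 (adjusted p = 0.483, interval −0.17 to 0.50).

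Cdkn1a (ENSMUSG00000023067, plus strand of chromosome 17, 29090976 to 29100727), which encodes the cyclin-dependent kinase inhibitor p21, is the classical mediator of p53-driven arrest. It had 27.0, 25.4 and 29.8 FPKM in Wtap-BKO libraries, against 20.4, 38.5 and 39.7 FPKM in flox/flox libraries. The Wtap-BKO libraries were tight and lay between flox/flox 1, the lowest of all 6, and the other flox/flox libraries, the highest. The change was −0.20 ± 0.25 (adjusted p = 0.641, interval −0.81 to 0.40). Without flox/flox 1 it was −0.52 (adjusted p = 0.0831). An opposite-strand locus, AC167363.2, covers 7.68% of the exon bases of Cdkn1a. The other gene tied to the cell cycle, Ccng1 (ENSMUSG00000020326, minus strand of chromosome 11, 40748552 to 40755311), encodes cyclin G1, a p53 target that recruits a phosphatase to MDM2. It was the most abundant of the 10, at 46.0, 70.6 and 64.0 FPKM in Wtap-BKO libraries and 59.2, 59.2 and 42.1 FPKM in flox/flox libraries. Each group had 1 low library, and the change was 0.16 ± 0.20 (adjusted p = 0.640, interval −0.32 to 0.65).

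Bax and Bbc3 carry the mitochondrial arm of p53-driven apoptosis. BAX forms pores in the outer mitochondrial membrane, and PUMA, the product of Bbc3, releases it from BCL2-type inhibitors. Bax (ENSMUSG00000003873, minus strand of chromosome 7, 45461697 to 45466898) had 16.2, 11.9 and 13.1 FPKM in Wtap-BKO libraries, against 11.0, 10.2 and 13.8 FPKM in flox/flox libraries. The highest library was Wtap-BKO 1, but flox/flox 3 stood above the other Wtap-BKO libraries, and the change was 0.24 ± 0.16 (adjusted p = 0.381, interval −0.15 to 0.63). Bbc3 (ENSMUSG00000002083, plus strand of chromosome 7, 16308393 to 16318205) had 4.88, 13.99 and 6.43 FPKM in Wtap-BKO libraries, against 5.48, 5.35 and 5.07 FPKM in flox/flox libraries. The value of Wtap-BKO 2 was 2.17 times that of the next Wtap-BKO library, while the lowest library of all 6 was also Wtap-BKO. The change was 0.51 ± 0.35 (adjusted p = 0.383, interval −0.32 to 1.35), and without Wtap-BKO 2 it was 0.08 (adjusted p = 0.790). Of the 10 genes Bbc3 thus had the second largest change and rested on 1 library for it.

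Aen (ENSMUSG00000030609, plus strand of chromosome 7, 78895854 to 78911209) encodes an apoptosis-enhancing exonuclease that p53 induces and that digests DNA in dying cells. It had 6.40, 5.88 and 6.05 FPKM in Wtap-BKO libraries, against 2.55, 3.65 and 3.77 FPKM in flox/flox libraries. Every Wtap-BKO library stood above every flox/flox library, the Wtap-BKO libraries differed from each other by a factor of 1.09 at most, and flox/flox 1 was the lowest. The mean level was 1.84 times as high, at 6.11 ± 0.26 FPKM in Wtap-BKO and 3.32 ± 0.67 FPKM in flox/flox mice (SD, n = 3 each). The change was 0.88 ± 0.17 (SE) with an adjusted p of 0.0245 and an interval of 0.49 to 1.27. The call was close to the threshold. Over 18 alternatives the change stayed between 0.70 and 0.98, the adjusted p ran from 0.0178 to 0.181, and Aen was called in 10. With 1 library left out the adjusted p was 0.0471 to 0.0728, still called without flox/flox 1 (0.04999) or flox/flox 3, and lost without Wtap-BKO 1, 2 or 3 or flox/flox 2. Without both muscle-rich libraries the change was 0.96 (adjusted p = 0.181), a setting in which 0 of all tested genes were called although 2217 had an unadjusted p under 0.05.

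Zmat3 (ENSMUSG00000027663, minus strand of chromosome 3, 32334792 to 32366014) encodes a zinc-finger RNA-binding protein through which p53 acts on splicing and mRNA stability. It was low in every library, at 1.35, 1.15 and 1.35 FPKM in Wtap-BKO libraries, against 0.811, 0.977 and 0.947 FPKM in flox/flox libraries. The groups did not overlap, and the change was 0.45 ± 0.18 (unadjusted p = 0.0415, adjusted p = 0.156, interval 0.02 to 0.88). It was called in 0 of 18 alternatives. Sesn1 (ENSMUSG00000038332, plus strand of chromosome 10, 41809935 to 41908424) encodes sestrin 1, which restrains mTORC1 and oxidative stress. It had 4.67, 7.43 and 6.997 FPKM in Wtap-BKO libraries, against 4.46, 4.44 and 4.37 FPKM in flox/flox libraries. The flox/flox libraries differed by a factor of only 1.02, and Wtap-BKO 1 lay just above them while the other Wtap-BKO libraries were clearly higher. The change was 0.49 ± 0.18 (unadjusted p = 0.0320, adjusted p = 0.135, interval 0.06 to 0.92). Without Wtap-BKO 1 it was 0.69 and was called (adjusted p = 0.0218).

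Eda2r (ENSMUSG00000034457, minus strand of chromosome X, 97333840 to 97377216) encodes the receptor for the A2 form of ectodysplasin, a member of the tumour necrosis factor receptor family. It was the least abundant of the 10, at 0.321, 0.796 and 0.462 FPKM in Wtap-BKO libraries and 0.496, 0.521 and 0.441 FPKM in flox/flox libraries, or 36 to 81 reads a library. Wtap-BKO libraries held both the highest and the lowest value. The change was 0.03 ± 0.35 (adjusted p = 0.970, interval −0.81 to 0.87), its sign was negative with mitochondrially encoded genes left out of the library size (−0.03), and the gene was only just above the filter. Its ligand gene Eda had 1.68, 2.94 and 2.03 FPKM in Wtap-BKO libraries and 3.02, 3.22 and 2.17 FPKM in flox/flox libraries (−0.34 ± 0.24, adjusted p = 0.394). Of the adaptors tested with them, Traf6 had 0.42 ± 0.17 (adjusted p = 0.167) and Traf3 0.48 ± 0.27 (adjusted p = 0.284), both as log2 changes.

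**Figure D2:**
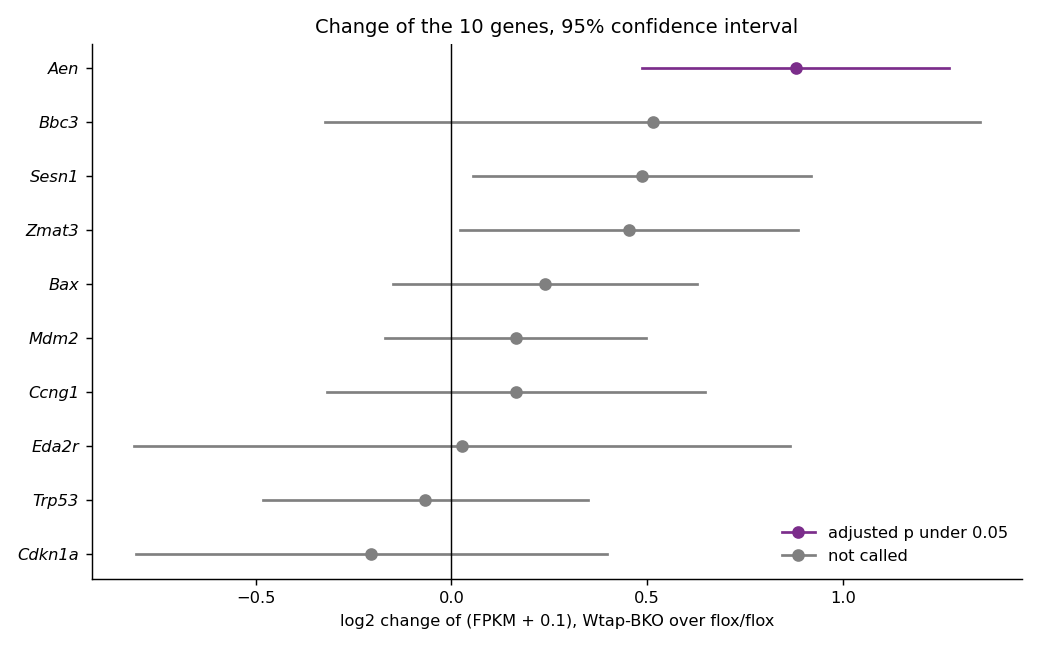
Change of the 10 genes on the log2(FPKM + 0.1) scale, Wtap-BKO over Wtap flox/flox (x axis), with points for the fitted change and lines for the 95% confidence interval. The interval lies above 0 for Aen, Sesn1 and Zmat3, and only Aen, in purple at 0.88, has an adjusted p under 0.05.

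Levels among the 10 genes spanned 2 orders of magnitude, from Eda2r at 0.527 ± 0.244 FPKM in Wtap-BKO and 0.486 ± 0.041 FPKM in flox/flox mice to Ccng1 at 60.2 ± 12.7 and 53.5 ± 9.88 FPKM. Cdkn1a followed at 27.4 ± 2.27 FPKM in Wtap-BKO and 32.9 ± 10.8 FPKM in flox/flox mice, then Bax at 13.8 ± 2.22 and 11.7 ± 1.92 FPKM and Mdm2 at 10.8 ± 1.499 and 9.63 ± 1.15 FPKM. Bbc3, Trp53, Sesn1 and Aen lay between 3.32 and 8.43 FPKM in mean level in both groups. The genes did not share 1 high library. Wtap-BKO 2 was the highest of the 6 in 5 genes (Bbc3, Ccng1, Eda2r, Mdm2 and Sesn1), against 20.2% of all tested genes, and Wtap-BKO 1 in 3 (Aen, Bax and Zmat3), against 15.2%. The remaining highest values, of Cdkn1a and Trp53, were those of flox/flox 3.

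Relatives of 3 of the genes were read beside them. Among the sestrins, Sesn2 was lower, at 6.54, 7.32 and 3.92 FPKM in Wtap-BKO libraries against 13.4, 14.8 and 10.9 FPKM in flox/flox libraries. Its change was −1.16 ± 0.24 (adjusted p = 0.0319) and lay on the other side of 0 from that of Sesn1, and the call was lost without any 1 of the flox/flox libraries. Sesn2 is also a target of the integrated stress response factor ATF4. Sesn3 stood at 0.25 ± 0.17 (adjusted p = 0.386). Of the genes tested beside Ccng1, Ccng2 had −0.21 ± 0.26 (adjusted p = 0.645), Ccni 0.25 ± 0.11 (adjusted p = 0.204) and Gak −0.01 ± 0.10 (adjusted p = 0.976). Ccng2 encodes cyclin G2, Ccni cyclin I and Gak a cyclin G-associated kinase, and none was called. In the Zmat group, Zmat2, a splicing factor, was called higher at 19.8, 19.6 and 21.0 FPKM in Wtap-BKO libraries against 14.4, 12.9 and 13.6 FPKM in flox/flox libraries (0.56 ± 0.09, adjusted p = 0.0163), and with 1 library left out it was called only without Wtap-BKO 1 or 2. Zmat1 (−0.17 ± 0.19, adjusted p = 0.605) and Zmat5 (−0.16 ± 0.14, adjusted p = 0.519) were not called.

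A wider list of 77 p53 regulators and targets, the 10 genes included, had 65 tested. Of these 10 were called higher (15.4%) and 4 lower (6.15%), beside 6.1% and 3.88% of all tested genes. Without the 10 genes, 9 of 55 were called higher and 4 lower. The median change of the 65 was −0.03, against −0.004 over all tested genes, with 31 changes above 0 and 34 below. Both directions were thus called within the pathway. These counts were 5 higher and 1 lower with no filter on low values.

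Among 14 regulators of p53, Mdm4 was lower and Usp10 higher (7.14% each, beside 3.88% and 6.1% of all tested genes). Mdm4, the partner of MDM2 that blocks the activation domain of p53, had 6.12, 6.02 and 6.08 FPKM in Wtap-BKO libraries, against 8.35, 8.58 and 8.89 FPKM in flox/flox libraries. Each group was tight, within a factor of 1.02 in Wtap-BKO and 1.06 in flox/flox, and the change was −0.50 ± 0.09 (adjusted p = 0.0223). Usp10, a deubiquitinase that stabilizes p53, had 6.90, 8.06 and 7.25 FPKM in Wtap-BKO libraries, against 4.04, 4.95 and 4.94 FPKM in flox/flox libraries. Its change was 0.66 ± 0.13 (adjusted p = 0.0247). The groups of both genes did not overlap, and with 1 library left out either was called only without Wtap-BKO 1. Ppm1d, the phosphatase WIP1 that p53 induces and that shuts the damage response down, had −0.09 ± 0.15 (adjusted p = 0.732).

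Of 9 targets with a role in arrest, 1 was called, higher (11.1%, beside 6.1% of all tested genes). It was Gadd45b, at 10.9, 11.6 and 10.1 FPKM in Wtap-BKO libraries against 3.89, 3.90 and 2.87 FPKM in flox/flox libraries. Gadd45b encodes a stress sensor that binds p21 and stress kinases, and it is induced by NF-κB and TGF-β as well. Its change, 1.59 ± 0.15 (adjusted p = 0.00442), was called in 17 of 18 alternatives. Its relatives differed. Gadd45a, the form most often tied to p53, had 8.79, 3.22 and 3.15 FPKM in Wtap-BKO libraries against 2.53, 2.51 and 2.19 FPKM in flox/flox libraries. The groups did not overlap, but Wtap-BKO 1 was 2.73 times the next library and the change of 0.87 ± 0.38 was not called (adjusted p = 0.185). Gadd45g had −0.39 ± 0.32 (adjusted p = 0.455). Gadd45a and Gadd45g were picked after their values were seen.

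Among 13 targets with a role in cell death, 3 were called higher (23.1%, beside 6.1% of all tested genes), Aen with Fas and Dram1. None was called lower by limma or voom, with 1 lower at an unadjusted p under 0.05 from limma. Fas, the death receptor of the tumour necrosis factor family, had 23.8, 18.4 and 21.3 FPKM in Wtap-BKO libraries, against 11.3, 11.2 and 10.3 FPKM in flox/flox libraries (0.94 ± 0.12, adjusted p = 0.00848). Dram1, a lysosomal membrane protein that links p53 to autophagy, had 14.1, 24.1 and 21.1 FPKM in Wtap-BKO libraries, against 9.93, 9.58 and 9.38 FPKM in flox/flox libraries (0.995 ± 0.20, adjusted p = 0.0262). Neither gene overlapped between the groups. Fas was called in each fit that left out 1 library, and Dram1 only without Wtap-BKO 1. Macrophage and fibroblast markers, which were higher in the same libraries, stand beside these values, and their part was not tested.

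Of 15 tested targets in metabolism and DNA repair, 3 were called higher and 3 lower, and the other 9 were not called. Each direction made up 20%, beside 6.1% of all tested genes called higher and 3.88% called lower. The median change of the 15 was −0.27, against −0.004 over all tested genes, with 5 changes above 0 and 10 below. Gpx1, a peroxide-removing selenoenzyme, had 547.7, 640.5 and 544.8 FPKM in Wtap-BKO libraries, against 235.7, 250.5 and 248.1 FPKM in flox/flox libraries (1.24 ± 0.11, adjusted p = 0.00409). Tigar, a fructose bisphosphatase that slows glycolysis, had 10.3, 10.4 and 11.2 FPKM in Wtap-BKO libraries, against 5.04, 5.39 and 6.48 FPKM in flox/flox libraries (0.91 ± 0.12, adjusted p = 0.00963). Their mean levels were 2.36 and 1.89 times as high, and both were called in each fit that left out 1 library. Fdxr, the mitochondrial ferredoxin reductase, had 10.7, 12.7 and 12.6 FPKM in Wtap-BKO libraries, against 7.61, 7.33 and 5.35 FPKM in flox/flox libraries (0.83 ± 0.16, adjusted p = 0.0251). Rrm2b, the p53-inducible ribonucleotide reductase subunit that supplies DNA precursors outside S phase and to mitochondria, was lower, at 1.58, 2.26 and 2.10 FPKM in Wtap-BKO libraries against 3.72, 3.47 and 3.40 FPKM in flox/flox libraries (−0.82 ± 0.16, adjusted p = 0.0272). Besides Sesn2, the third lower gene was Pank1, which makes coenzyme A, at −0.71 ± 0.16 (adjusted p = 0.0414). It was named after its values were seen. With 1 library left out, Fdxr was called only without Wtap-BKO 1 or flox/flox 3, Rrm2b only without Wtap-BKO 1 or 2 and Pank1 only without Wtap-BKO 1. The range of summed brown adipocyte markers was also lower in Wtap-BKO, and its part in these values was not tested.

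Of 14 further targets, 2 were called higher (14.3%, beside 6.1% of all tested genes). None was called lower by limma or voom, and limma gave 1 lower at an unadjusted p under 0.05. Ephx1, the microsomal epoxide hydrolase, had 38.4, 37.9 and 32.5 FPKM in Wtap-BKO libraries, against 12.6, 13.5 and 13.4 FPKM in flox/flox libraries (1.45 ± 0.10, adjusted p = 0.00353). Pltp, the phospholipid transfer protein, had 24.1, 18.1 and 20.6 FPKM in Wtap-BKO libraries, against 10.9, 12.8 and 14.9 FPKM in flox/flox libraries (0.70 ± 0.16, adjusted p = 0.0373). Ephx1 was called in each fit that left out 1 library, whereas Pltp was called in 7 of 18 alternatives and, with 1 library left out, only without Wtap-BKO 2. No groups overlapped, but 19.3% of the exon bases of Pltp are shared with Ctsa on the other strand, and reads of the pair may not be separable, since the sources used here do not give the strand setting of the count. Phlda3, an AKT inhibitor induced by p53, had 262.1, 538.0 and 314.5 FPKM in Wtap-BKO libraries, against 219.0, 175.1 and 184.2 FPKM in flox/flox libraries. It was not called (0.88 ± 0.26, adjusted p = 0.0786), Wtap-BKO 2 stood well above the rest, and it too was picked after its values were seen.

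**Figure D3:**
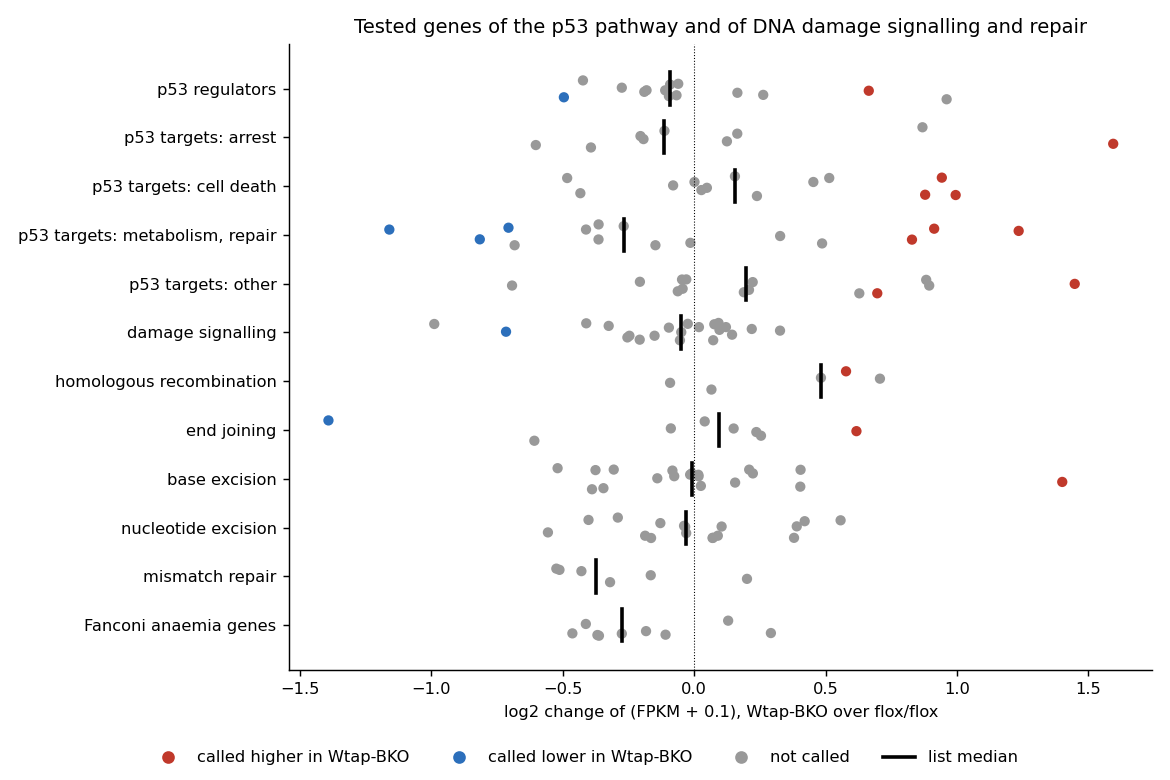
Change on the log2(FPKM + 0.1) scale, Wtap-BKO over Wtap flox/flox (x axis), of each tested gene in 5 lists of p53 regulators and targets and 7 lists of DNA damage signalling and repair (rows), red where called higher, blue where called lower and grey where not called. Black bars are list medians, and the p53 lists hold 10 red and 4 blue points against 3 red and 2 blue in the other lists.

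Of 106 genes of DNA damage signalling and repair, 85 were tested. Of these 3 were called higher (3.53%) and 2 lower (2.35%), beside 6.1% and 3.88% of all tested genes. Without adjustment 21 of the 85 had a p under 0.05 (24.7%), against 28.9% of all tested genes. The groups did not overlap in 14 genes with Wtap-BKO above (16.5%) and in 23 with Wtap-BKO below (27.1%), against 18.2% and 16.9% of all tested genes. The median change was −0.03. In damage signalling, 1 of 21 genes was called, Rpa3, a subunit of the single-strand binding protein RPA. It had 9.44, 9.58 and 9.68 FPKM in Wtap-BKO libraries, against 19.7, 16.1 and 12.4 FPKM in flox/flox libraries, with tight Wtap-BKO values below a wide flox/flox range (−0.72 ± 0.17, adjusted p = 0.0421), and with voom it was not called. With 1 library left out Rpa3 was called only without flox/flox 3. The other 20 genes, sensor kinases and checkpoint genes among them, were not called, and the checkpoint kinase gene Chek1, at 0.159 to 0.260 FPKM, was below the filter.

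In end joining the change of a single subunit stood apart. Xrcc6, which encodes Ku70, had 21.9, 18.6 and 20.1 FPKM in Wtap-BKO libraries, against 57.4, 54.9 and 47.4 FPKM in flox/flox libraries. Wtap-BKO libraries were thus at 0.380 of the flox/flox mean, without overlap, and the change of −1.39 ± 0.11 (adjusted p = 0.00369) was called in 17 of 18 alternatives. Xrcc5, which encodes its obligate partner Ku80 and was named after its values were seen, had 1.69, 1.66 and 1.76 FPKM in Wtap-BKO libraries and 1.73, 1.61 and 1.62 FPKM in flox/flox libraries. Its change was 0.04 ± 0.14 (adjusted p = 0.875). The exons of Xrcc6 overlap Desi1 on the other strand over 7.69% of their bases, and Desi1 had 8.60, 7.52 and 10.8 FPKM in Wtap-BKO libraries against 5.01, 5.02 and 4.60 FPKM in flox/flox libraries. Poll, a gap-filling polymerase of the same route, had 8.05, 9.37 and 6.89 FPKM in Wtap-BKO libraries, against 5.44, 5.23 and 4.96 FPKM in flox/flox libraries (0.62 ± 0.13, adjusted p = 0.0347). Poll was called in 9 of 18 alternatives and, with 1 library left out, only without Wtap-BKO 3.

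The other calls in repair were Apex1 and Rad51d. Apex1, the main abasic-site endonuclease of base excision repair, had 7.06, 11.0 and 10.2 FPKM in Wtap-BKO libraries, against 4.31, 3.63 and 2.63 FPKM in flox/flox libraries (1.40 ± 0.23, adjusted p = 0.0175). As 61.7% of its exon bases lie opposite Pip4p1, which had 9.19, 9.83 and 8.82 FPKM in Wtap-BKO and 8.67, 8.97 and 8.00 FPKM in flox/flox libraries, the level of Apex1 is uncertain. Its call was lost without Wtap-BKO 3 or flox/flox 2. Rad51d, a gene of homologous recombination, had 9.68, 8.05 and 10.4 FPKM in Wtap-BKO libraries, against 6.76, 6.33 and 5.59 FPKM in flox/flox libraries (0.58 ± 0.13, adjusted p = 0.0419). Rad51d was called in 7 of 18 alternatives and, with 1 library left out, only without Wtap-BKO 2. It was 1 of only 5 genes of that route above the filter, while 9, among them Brca1 and Brca2, lay below it. No gene was called among 17 of nucleotide excision and 9 of the Fanconi anaemia group. There limma gave an unadjusted p under 0.05 for 4 and 2 genes (23.5% and 22.2%, beside 28.9% of all tested genes). Of the 9 Fanconi anaemia genes, 7 changes were below 0 and 2 above. The groups did not overlap in 5 of them with Wtap-BKO below (55.6%) and in 1 with Wtap-BKO above (11.1%). Over all tested genes these shares were 16.9% and 18.2%. With voom 1 gene was called lower in nucleotide excision (Uvssa, named after its values were seen) and 0 in the Fanconi anaemia group.

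**Figure D4:**
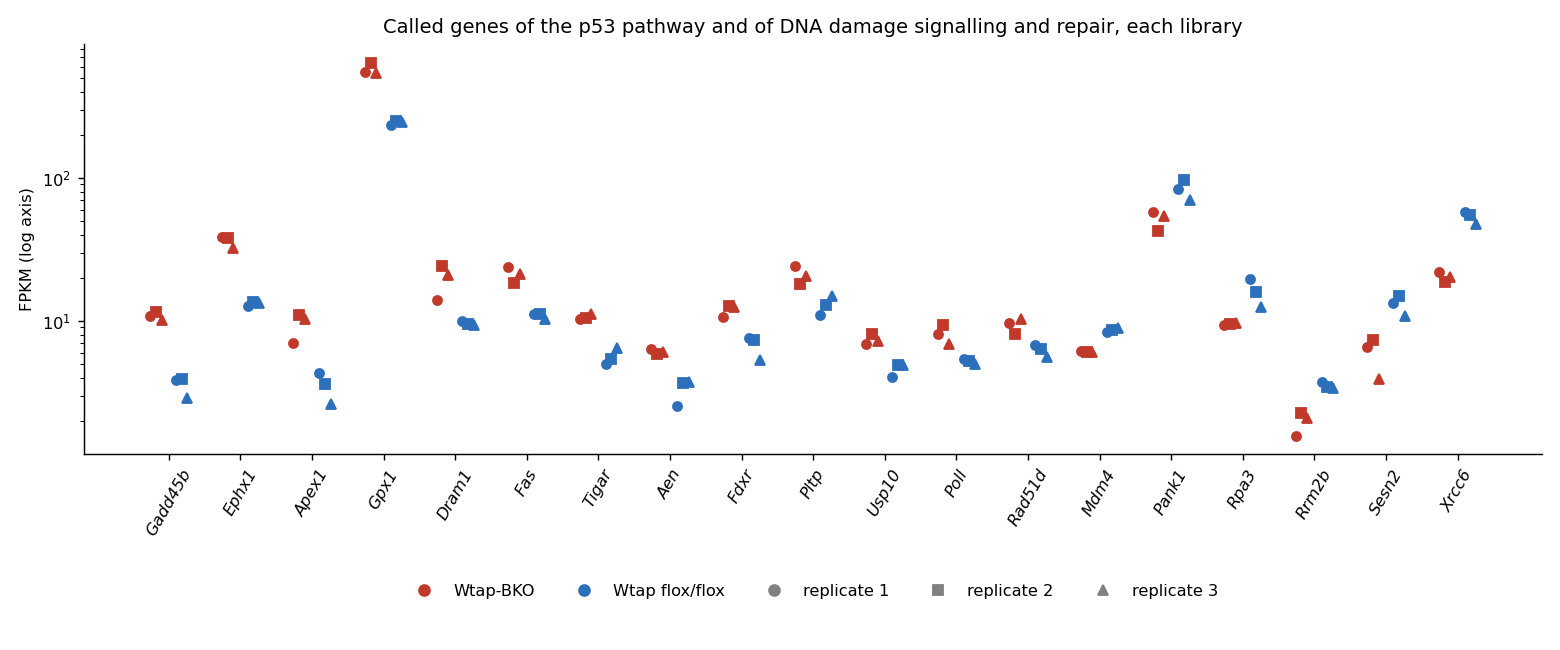
FPKM (y axis, log scale) of the 19 called genes of the p53 pathway and of DNA damage signalling and repair, ordered by change, in each Wtap-BKO library (red, left of each pair) and each Wtap flox/flox library (blue, right). Red lies above blue in the 13 genes from Gadd45b to Rad51d and below it in the 6 from Mdm4 to Xrcc6, with no overlap in any.

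The processes downstream of p53 were compared last. Besides Bax and Bbc3, which were not called, 0 of 14 further tested genes of the BCL2 family were called, beside 9.98% of all tested genes. For 2 of the 14 limma gave an unadjusted p under 0.05 (14.3%), against 28.9% of all tested genes. With voom 1 was called higher (Bid, named after its values were seen). In the caspase pathway 2 of 21 were called, both lower (9.52%, beside 3.88% of all tested genes). Both encode proteins of the mitochondrial intermembrane space that also serve respiration. Cycs, cytochrome c, had 134.7, 153.7 and 125.0 FPKM in Wtap-BKO libraries, against 237.9, 221.6 and 196.7 FPKM in flox/flox libraries (−0.67 ± 0.12, adjusted p = 0.0225). Aifm1, the apoptosis-inducing factor, had 22.7, 29.2 and 25.6 FPKM in Wtap-BKO libraries, against 42.4, 40.6 and 36.0 FPKM in flox/flox libraries (−0.62 ± 0.12, adjusted p = 0.0274). With 1 library left out, Aifm1 was called only without Wtap-BKO 1 or 2, and Cycs only without Wtap-BKO 1 or 2 or flox/flox 3. Reads from mitochondrially encoded genes were also fewer in Wtap-BKO, at 11.0% to 12.2% of each library against 18.3% to 22.4% in flox/flox, and their part was not tested.

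Of 13 CDK inhibitors and senescence-related genes tested, Cdkn1a included, 1 was called, higher (7.69%, beside 6.1% of all tested genes). Glb1, the lysosomal β-galactosidase behind the histochemical senescence stain, had 10.05, 9.01 and 11.5 FPKM in Wtap-BKO libraries, against 6.00, 5.51 and 4.44 FPKM in flox/flox libraries (0.93 ± 0.15, adjusted p = 0.0161). Its call was lost without Wtap-BKO 3 or flox/flox 2. Macrophage markers were higher in the same libraries, and their part in this value was not tested. Cdkn2a, the locus of the senescence markers p16 and p19Arf, was listed at 0 in 4 of 6 libraries and reached 0.179 FPKM in Wtap-BKO 1 and 0.0540 FPKM in flox/flox 3. Of 17 proliferation genes tested 0 were called by limma or voom, beside 9.98% of all tested genes called by limma. For 3 of the 17 limma gave an unadjusted p under 0.05 (17.6%), against 28.9% of all tested genes. Cdk1, Ccna2 and Ccnb1 were below the filter at 0.170 to 0.667 FPKM.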

How the data were processed

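Total RNA of iBAT from 3 Wtap-BKO and 3 Wtap flox/flox mice was sequenced as paired reads. The authors aligned the reads to GRCm38.p6 with HISAT2 2.0.5, counted them per gene with featureCounts 1.5.0-p3 and ran DESeq2 1.16.1, as the submitters' processing notes and the methods state. For the counts, no strand setting is given in the sources used here. Deposited were FPKM per gene in 6 columns, beside gene length. In the deposited FPKM, 100% of nonzero values were whole multiples of 1 read within 0.01, so reads were recovered, and the authors' values were already scaled by median-of-ratios size factors.

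Here limma 3.58.1 in R 4.3.3 was fitted to log2(FPKM + 0.1) with group as the only term and a variance trend, over the 13507 genes whose mean reached 0.5 FPKM and 10 recovered reads, with Benjamini-Hochberg adjustment over all of them. Every p in a gene's comparison is two-sided and from this fit. The study calls the replicates biological. Within each group, every pair of replicates differed beyond sampling noise. The numbers were not used to pair the samples in this fit.

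Named genes were the 10 genes, Wtap, Mdm4, Ppm1d, all tested genes of 4 small families and, from each other list, up to 5 called genes with the smallest p. The genes, lists and tests were chosen with earlier results of these data known. Alternatives were pseudocounts of 1 and 0.01, 2 other filters, 3 other scalings, voom on recovered reads, no trend, a robust variance, a replicate block, each library left out and, added after seeing the data, both muscle-rich libraries left out. Coordinates are GRCm38.p6, with GENCODE exons and RefSeq promoter windows of the same assembly. Some results on single repair genes are not reported here.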

Additional observations from a re-analysis of the deposited data

How the results depend on the processing

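Depth was alike in all libraries, and the limits lie in n = 3 mice a group, in calls near the threshold and in low genes such as Eda2r, which had no value under the stricter filter. Over 18 alternatives the named genes gave 845 comparisons with the fit as reported, of which 681 kept direction and side of the threshold, 143 lost a call, 4 gained one and 17 changed sign.

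With no filter on low values, the calls were 442 higher and 245 lower over all genes, 0 higher among the 10 genes (Aen, adjusted p = 0.0539), 5 higher and 1 lower in the p53 pathway, and 1 higher and 1 lower in DNA damage signalling and repair. With library size alone, 1114 genes were higher and 310 lower over all. There the p53 pathway had 11 higher and 2 lower, and DNA damage signalling and repair 4 higher and 1 lower. Without mitochondrially encoded genes in the library size, 0 of the 10 genes were higher (Aen, adjusted p = 0.0530). With no variance trend, DNA damage signalling and repair had 1 higher and 1 lower.

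Same-numbered libraries did not deviate together (correlations −0.05, −0.40 and −0.27), although 3 libraries a group are too few to exclude a pairing. With the replicate number as a block, 211 genes were higher and 97 lower over all, 0 of the 10 genes higher (Aen, adjusted p = 0.0770), 5 higher and 1 lower in the p53 pathway, and 0 higher and 1 lower in DNA damage signalling and repair. Without both flox/flox 2 and Wtap-BKO 3, chosen after seeing the data, 0 genes were called in any of these groups or over all genes, higher or lower, though 2217 had an unadjusted p under 0.05. The block fit has more terms, the no-filter fit more genes (28547) and the fewer-library fits fewer libraries. What part this had in the lost calls was not tested.

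Leaving out 1 library at a time gave 229 to 851 genes higher and 93 to 425 lower over all, 0 to 1 of the 10 genes higher, 5 to 11 higher and 0 to 5 lower in the p53 pathway, and 0 to 2 higher and 1 to 2 lower in DNA damage signalling and repair. Over all genes the fewest higher calls came without flox/flox 1 and the fewest lower without flox/flox 2.

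Signs changed for 6 of the named genes, of which none was called. Trp53 had 0.0161 with library size alone, 0.10 without both muscle-rich libraries and −0.17 to 0.10 with 1 library left out. Eda2r had −0.0267 without mitochondrially encoded genes, −0.000646 with voom and −0.27 to 0.28 with 1 library left out. Xrcc5 had −0.0140 without mitochondrially encoded genes. Without both muscle-rich libraries Ppm1d had 0.0336, Ccng2 0.127 and Gak 0.0406, and Gak had 0.0773 with library size alone. With 1 library left out, Ppm1d ran from −0.237 to 0.0251, Ccng2 from −0.48 to 0.00668 and Gak from −0.0581 to 0.0566.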
